A study of Mus musculus with 12 samples.

Results

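Adipogenic transcription factors are the nuclear proteins that turn dermal precursor cells into fat cells or drive lipid synthesis in them. The 9 genes described here are Pparg, Cebpa, Cebpb, Cebpd, Srebf1, Klf15, Zfp423, Ebf2 and Nr1h3, each measured by the probe sets annotated to its symbol alone. This gave 13 of 45037 probe sets, for 9 of 18193 genes: 3 probe sets for Ebf2, 2 each for Cebpb and Cebpd, and 1 for each of the others. Dermis of newborn mice was profiled on 12 one-colour Affymetrix arrays, with 3 arrays in each of 4 groups: tail skin and back skin 5 days after birth (P5 tail, P5 back) and tail skin and back skin 1 day after birth (P1 tail, P1 back). All mice were of the strain C57Bl6/CBA F1, with no transgene or treatment in the labels. Tail skin was loosened in EDTA and back skin in a mix of dispase and trypsin before the dermis was peeled off and digested to single cells, so site and separating solution cannot be told apart. Site was compared in the study to look for expression differences behind the unequal hair follicle formation of back and tail wounds, and the purpose of the P5 arrays is not given in the sources used here. Each array was taken as 1 mouse, as the methods describe triplicate mice for P1. For P5 the sources used here do not say so, and the p-values measure the spread between these arrays.

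Fat cell formation is a cascade. Cebpb and Cebpd encode C/EBPβ and C/EBPδ, which are induced early in a differentiating preadipocyte and switch on Pparg and Cebpa. PPARγ, a nuclear receptor, and C/EBPα then maintain each other's expression and turn on the genes of the mature fat cell. Srebf1 encodes SREBP1, which drives fatty acid synthesis genes, and Nr1h3 encodes LXRα, an oxysterol receptor that induces Srebf1 in liver. Klf15 is a Krüppel-like factor of late fat cell differentiation, Zfp423 commits mesenchymal cells to the preadipocyte state, and Ebf2 marks precursors of brown and beige fat. In skin, white fat cells form a layer under the dermis in the days around birth. Pparg, Cebpa and Srebf1 are also active in sebaceous glands, and C/EBPα and C/EBPβ in differentiating keratinocytes.

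The 250 bases before the transcription start of the members on which the results turn are shown because these members moved together or in opposite directions between the same groups. They are RefSeq windows of the mouse build GRCm38.p6, available for 7 of the 9 genes (13 starts in all) and printed 5′ to 3′ along the gene. Capitals mark exact matches on either strand to any of 8 motifs. These were TTGCNNAA, letters bound by C/EBP factors, with its special case TTGCGCAA, the nuclear receptor half-site AGGTCA, the palindrome of the E-box (CACGTG), a sterol regulatory element with the letters TCACCCCAC, the GC-rich box bound by Sp1 (GGGCGG), the core promoter element TATAAA and the upstream promoter element CCAAT.
Pparg, the second start, chr6:115362099-115362348, plus strand: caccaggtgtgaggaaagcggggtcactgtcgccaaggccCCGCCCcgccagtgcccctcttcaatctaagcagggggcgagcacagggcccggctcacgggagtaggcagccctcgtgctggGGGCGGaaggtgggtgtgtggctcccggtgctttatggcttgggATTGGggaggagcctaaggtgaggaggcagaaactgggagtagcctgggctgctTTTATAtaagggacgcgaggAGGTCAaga
Pparg, the third start, chr6:115421816-115422065, plus strand: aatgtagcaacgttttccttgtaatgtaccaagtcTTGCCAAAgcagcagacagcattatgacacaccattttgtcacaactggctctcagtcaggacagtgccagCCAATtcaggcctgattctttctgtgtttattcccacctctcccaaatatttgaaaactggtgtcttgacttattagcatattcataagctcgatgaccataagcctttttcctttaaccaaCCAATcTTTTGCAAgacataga
Cebpa, chr7:35119043-35119292, plus strand: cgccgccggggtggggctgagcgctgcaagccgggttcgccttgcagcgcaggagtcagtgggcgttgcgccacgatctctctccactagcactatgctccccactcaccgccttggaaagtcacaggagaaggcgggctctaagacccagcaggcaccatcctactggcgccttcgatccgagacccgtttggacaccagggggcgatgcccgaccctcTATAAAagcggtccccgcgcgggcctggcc
Srebf1, the third start, chr11:60210472-60210721, minus strand: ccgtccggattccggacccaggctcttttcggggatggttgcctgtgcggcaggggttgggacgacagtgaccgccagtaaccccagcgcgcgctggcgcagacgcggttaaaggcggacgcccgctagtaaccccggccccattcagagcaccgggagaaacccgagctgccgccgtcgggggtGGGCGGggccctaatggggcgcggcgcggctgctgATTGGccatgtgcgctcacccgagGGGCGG
Zfp423, the first start, chr8:87959596-87959845, minus strand: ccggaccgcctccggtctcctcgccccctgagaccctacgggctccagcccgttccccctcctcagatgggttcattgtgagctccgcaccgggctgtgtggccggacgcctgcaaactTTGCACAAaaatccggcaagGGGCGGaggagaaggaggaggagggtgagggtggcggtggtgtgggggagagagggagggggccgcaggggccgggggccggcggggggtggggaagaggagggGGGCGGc

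In these windows the third Pparg start held 2 matches to TTGCNNAA, beginning 215 and 16 bases upstream, and the first Zfp423 start held 1, beginning 131 bases upstream. Over 32851 mouse promoter windows of the same length, 9.56% held this motif. TATAAA began 30 bases before the Cebpa start on the strand of the gene. Its reverse complement TTTATA began 29 bases before the second Pparg start, and 12.4% of all windows held the motif on either strand. AGGTCA stood 9 bases before the second Pparg start, against 14% of all windows with a match. In windows not printed, it began 28 bases before the first Pparg start and 34 bases before the second Zfp423 start. GGGCGG (32.7% of all windows) and the upstream element CCAAT (33.8%) were common in the background. Klf15 held 2 E-boxes (6.02% of all windows). TTGCGCAA (0.164%) and TCACCCCAC (0.496%) matched in none of the members' 13 windows. A match is a description of these letters and not a binding site, and the arrays did not measure binding.

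The array labels need a caution before any direction is read. The posterior Hox genes, which mark the tail end of the body axis, were lower in the arrays labelled tail: 7 of 10 measured were called lower at P5 and 7 of 10 at P1, with Hoxd11 at -3.28 at P5 and -3.09 at P1 on the log2 scale (labelled tail minus labelled back). Their mean centred value was -0.81 to -0.67 in P5 tail and -0.83 to -0.81 in P1 tail, against 0.71 to 0.79 in P5 back and 0.70 to 0.83 in P1 back. Of 11 measured Hox genes of the trunk, 5 were called higher under the tail label and 1 (Hoxd9) lower at each age. Hoxc8, among those higher, was so by 2.93 at P5 and by 2.78 at P1. The paper describes fat metabolism genes as higher in back dermis, which is opposite to the direction these labels give below. The groups were not exchanged, and tail and back mean labelled tail and labelled back throughout. Among single arrays, P5 tail replicate 2 had the widest spread over all probe sets, with an SD of 0.496 against 0.227 to 0.338 in the other 11. P1 back replicates 1 and 6 had high cartilage genes, with a mean over 16 genes of 1.88 and 1.58 against -0.36 to 0.72 in the other 10 arrays.

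Values are centred log2 intensities: each probe set is expressed relative to its median over the 12 arrays, so that 0 is the middle of the series and a value of 1 is a doubling relative to it. The centring leaves differences between arrays intact but removes the level, so it is not known how bright any of these factors was or how one compared with another. Since the dermis is a mixture, fewer cells of a type and less RNA per cell cannot be told apart. A difference was called at an adjusted p under 0.05 with limma over all genes.

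Pparg was the only one of the 9 factors called between the sites at both ages. It measured 0.87, 0.79 and 0.80 in the 3 P5 tail arrays, against -0.51, -0.58 and -0.35 in P5 back. At P1 it measured 0.90, 0.29 and 0.26 in tail, against -0.26, -0.44 and -0.54 in back. All 6 tail arrays therefore lay above all 6 back arrays, and 1 P1 tail array stood at the P5 tail level. Pparg was 1.30 higher in tail than in back at P5 (SE 0.16, 2.46-fold, adjusted p = 0.000272) and 0.89 higher at P1 (SE 0.16, 1.86-fold, adjusted p = 0.00498). With age it did not pass the test: P5 minus P1 was 0.34 in tail (95% interval 0.00 to 0.67, adjusted p = 0.24) and -0.07 in back (-0.40 to 0.27, adjusted p = 0.957). Without P1 tail replicate 4, the high array, the tail age difference was 0.55 with an adjusted p of 0.0345. That array also stood apart in genes of other cell types, with a mean of -1.09 for keratinocyte genes (0.27 and -0.24 in the other P1 tail arrays), 1.45 for muscle genes (0.69 and 0.44) and 0.53 for endothelial genes (-0.15 and 0.00), whose part in its Pparg value was not tested. Without P1 back replicates 1 and 6, the arrays with high cartilage genes, Pparg at P1 was 0.92 with an adjusted p of 0.138, in a fit with a single P1 back array that called 0.665% of all genes.

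Cebpa had the same order of groups, and its site difference was wider at P5 than at P1. Its values were 0.86, 0.63 and 0.56 in P5 tail, against -0.53, -0.51 and -0.51 in P5 back. At P1 they were 0.34, 0.11 and 0.14 in tail and -0.20, -0.11 and -0.17 in back. The 4 groups did not overlap, in the order P5 tail, P1 tail, P1 back, P5 back, and the 3 P5 back arrays had an SD of 0.013. Cebpa was 1.20 higher in tail at P5 (SE 0.10, 2.30-fold, adjusted p = 2.75e-05), while at P1 the difference was 0.36 (SE 0.10, adjusted p = 0.0851). In tail it was 0.49 higher at P5 than at P1 (SE 0.10, 1.40-fold, adjusted p = 0.0171), and in back P5 minus P1 was -0.35 (SE 0.10, adjusted p = 0.088). The site difference at P5 exceeded that at P1 by 0.84 (SE 0.15, adjusted p = 0.00871), and Cebpa was the only one of the 9 genes for which this interaction of site and age was called. The calls depended on single arrays in part: the tail age call was lost without P1 tail replicate 5 (adjusted p = 0.054) or 6 (adjusted p = 0.0735), and the interaction stood at 0.89 with an adjusted p of 0.108 without P1 back replicates 1 and 6. Without P5 tail replicate 2, Cebpa passed at P1 (adjusted p = 0.0265) and fell with age in back (adjusted p = 0.0268), at the same differences.

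**Figure D1:**
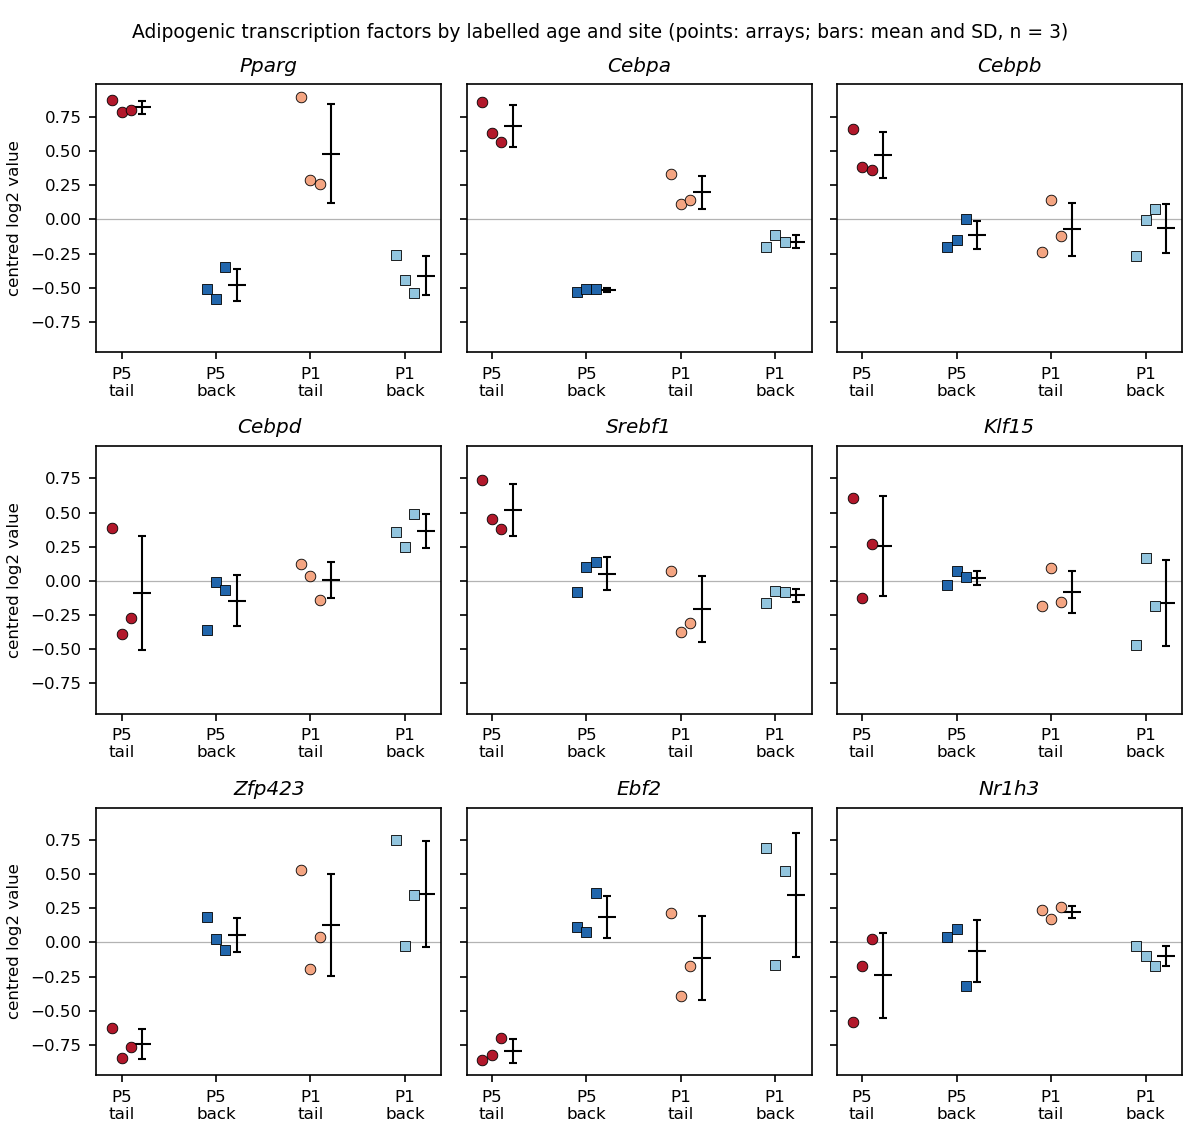
Centred log2 value (vertical axis) of the 9 factors in each array, by labelled group (horizontal axis), with points for arrays and bars for the mean and SD of 3. Pparg and Cebpa lie above 0 in all 6 tail arrays and below 0 in all 6 back arrays, and Zfp423 and Ebf2 lie below -0.60 in the 3 P5 tail arrays only.

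Cebpb, an early factor, was highest in P5 tail. Averaged over its 2 probe sets it measured 0.66, 0.38 and 0.36 in P5 tail, against -0.20, -0.15 and 0.00 in P5 back, -0.24, 0.14 and -0.12 in P1 tail, and -0.27, 0.00 and 0.07 in P1 back. The 3 P5 tail arrays were above the other 9, which overlapped one another. Cebpb was 0.58 higher in tail than in back at P5 (SE 0.13, adjusted p = 0.0189) and 0.54 higher at P5 than at P1 in tail (SE 0.13, adjusted p = 0.0358). At P1 the site difference was -0.01 (-0.30 to 0.28), in back the age difference was -0.05 (-0.34 to 0.24), and the interaction was 0.59 (SE 0.19, adjusted p = 0.137). The call at P5 was lost without P5 tail replicate 2 (adjusted p = 0.0514), P5 back replicate 1 (adjusted p = 0.0802) or P5 back replicate 2 (adjusted p = 0.0737). The tail age call was lost without any one of 6 arrays, namely P1 tail replicate 4 or 6, P1 back replicate 5, P5 tail replicate 2 and P5 back replicate 1 or 2, with adjusted p-values of 0.0506 to 0.152.

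The 2 Cebpb probe sets did not give the same result. Probe set 1418901_at measured 0.91, 0.78 and 0.62 in P5 tail, against -0.46, -0.29 and 0.01 in P5 back, a difference of 1.02 (SE 0.16, adjusted p over all probe sets = 0.00265). Probe set 1427844_a_at measured 0.41, -0.01 and 0.10 in P5 tail, against 0.07, -0.01 and 0.00 in P5 back, a difference of 0.15 (SE 0.15, adjusted p = 0.653). For 1418901_at the tail age difference was 0.83 (adjusted p = 0.0124) and the interaction 1.00 (SE 0.23, adjusted p = 0.0438), against 0.24 (adjusted p = 0.423) and 0.18 (adjusted p = 0.804) for 1427844_a_at. The suffix of the second marks a probe set that several transcripts of a gene share. The only probe sets of Pparg, Srebf1 and Nr1h3 carry the same suffix.

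Cebpd, the partner of Cebpb in the early step, did not pass in any comparison. It measured 0.39, -0.39 and -0.27 in P5 tail, -0.36, -0.01 and -0.07 in P5 back, 0.12, 0.04 and -0.14 in P1 tail, and 0.36, 0.25 and 0.49 in P1 back. The P1 back arrays lay above those of P1 tail and of P5 back, and 1 P5 tail array (replicate 2) stood with them. Tail minus back was 0.06 for Cebpd at P5 (-0.33 to 0.44) and -0.36 at P1 (-0.75 to 0.03, adjusted p = 0.394). In back P5 minus P1 was -0.51 (-0.90 to -0.12, adjusted p = 0.177), which passed without P5 tail replicate 2 at the same difference (adjusted p = 0.0223). Its 2 probe sets gave -0.51 each there.

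**Figure D2:**
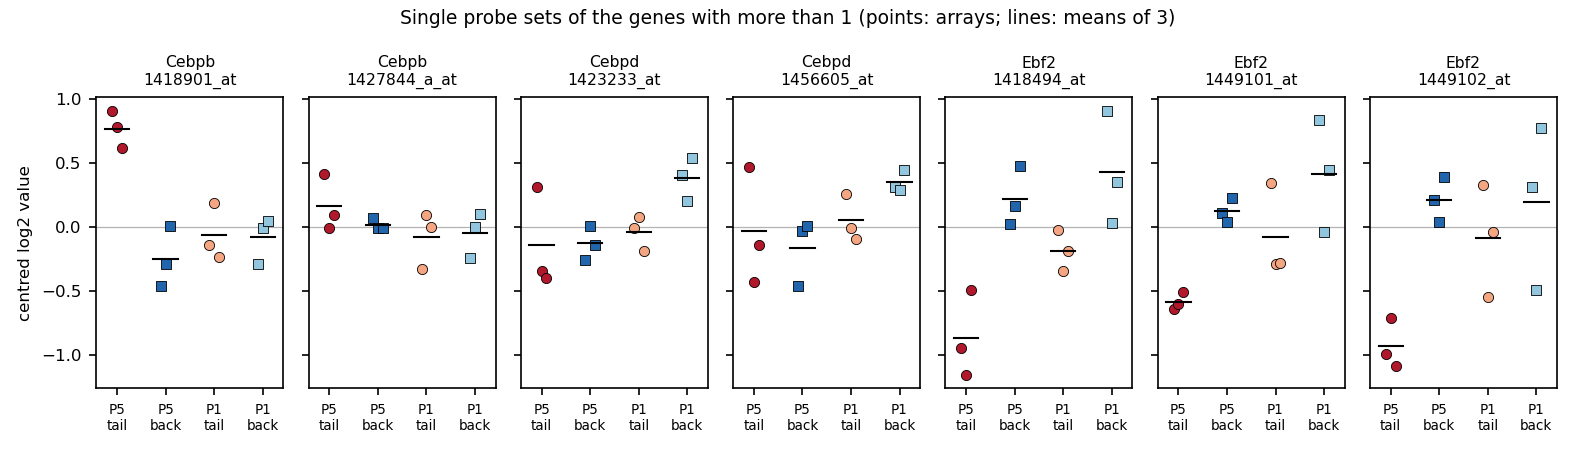
Centred log2 value (vertical axis) of each probe set of Cebpb, Cebpd and Ebf2, by labelled group (horizontal axis), with points for arrays and lines for the mean of 3. Cebpb 1418901_at is high in P5 tail (0.62 to 0.91), whereas 1427844_a_at spans -0.01 to 0.41 there, and the 3 Ebf2 probe sets are all low in P5 tail.

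Srebf1, the driver of fatty acid synthesis, rose with age in tail. It measured 0.73, 0.45 and 0.38 in P5 tail and 0.07, -0.37 and -0.31 in P1 tail, a difference of 0.72 (SE 0.13, 1.65-fold, adjusted p = 0.00773). In P5 back it measured -0.08, 0.10 and 0.14, and in P1 back -0.16, -0.07 and -0.08. The P5 tail arrays lay above all others. The site difference at P5 was 0.47 (0.18 to 0.76, adjusted p = 0.0574), just short of a call, and passed without P1 tail replicate 4 (adjusted p = 0.0291) or P5 tail replicate 4 (0.54, adjusted p = 0.0346). At P1 it was -0.10 (-0.39 to 0.19, adjusted p = 0.807), and the interaction was 0.57 (SE 0.19, adjusted p = 0.159). The tail age call held with any single array left out (adjusted p = 0.00441 to 0.0408).

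Nr1h3, the gene of LXRα, did not follow Srebf1. It measured -0.58, -0.17 and 0.03 in P5 tail, 0.04, 0.10 and -0.32 in P5 back, 0.24, 0.17 and 0.26 in P1 tail, and -0.03, -0.10 and -0.17 in P1 back. The P1 tail arrays were above all others, with no overlap, while the P5 tail arrays spread from -0.58 to 0.03. Neither difference that set P1 tail apart passed: tail minus back at P1 was 0.32 (-0.01 to 0.65, adjusted p = 0.358) and P5 minus P1 in tail was -0.46 (-0.79 to -0.14, adjusted p = 0.102). Without P5 tail replicate 4, the age difference was -0.60 with an adjusted p of 0.032.

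Zfp423, the commitment factor, fell in P5 tail. It measured -0.63, -0.84 and -0.76 in P5 tail, against 0.19, 0.03 and -0.06 in P5 back. In P1 tail it measured 0.53, -0.20 and 0.04, and in P1 back 0.75, -0.03 and 0.34. The 3 P5 tail arrays were below the other 9, and the P1 groups overlapped. Zfp423 was lower in tail than in back at P5, at -0.80 (SE 0.20, 1.74-fold, adjusted p = 0.0294), and lower at P5 than at P1 in tail, at -0.87 (SE 0.20, 1.83-fold, adjusted p = 0.0244). At P1 tail minus back was -0.23 (-0.66 to 0.20, adjusted p = 0.672). The P5 call was lost without P5 tail replicate 3 (adjusted p = 0.074) and without each P5 back array (adjusted p = 0.0643 to 0.112), and the tail age call without P1 tail replicate 4 (-0.67, adjusted p = 0.103) or 6 (adjusted p = 0.061).

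Ebf2, a factor of brown and beige fat precursors, had the same low P5 tail values. The mean of its 3 probe sets was -0.86, -0.83 and -0.70 in P5 tail, against 0.11, 0.08 and 0.36 in P5 back. At P1 it was 0.22, -0.39 and -0.17 in tail, against 0.69, -0.17 and 0.52 in back. The P5 tail arrays were again below the other 9. Ebf2 was lower in tail at P5, at -0.98 (SE 0.20, 1.97-fold, adjusted p = 0.0111), and its probe sets gave -1.09 (1418494_at, adjusted p = 0.0127), -0.71 (1449101_at, adjusted p = 0.0777) and -1.15 (1449102_at, adjusted p = 0.0328). The age difference in tail was -0.68 (-1.12 to -0.24, adjusted p = 0.0775) and the site difference at P1 was -0.46 (-0.91 to -0.02, adjusted p = 0.314). The P5 call was lost without P5 back replicate 3 (-0.89, adjusted p = 0.0538). Without P1 back replicate 5, the P1 difference was -0.72 (adjusted p = 0.0467) and the tail age difference passed (adjusted p = 0.027).

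In the 2 P1 back arrays with high cartilage genes, replicates 1 and 6, Zfp423 (0.75 and 0.34) and Ebf2 (0.69 and 0.52) were also high, against -0.03 and -0.17 in P1 back replicate 5. Without those 2 arrays tail minus back at P1 was 0.15 for Zfp423 and 0.05 for Ebf2. The part of cartilage in these values was not tested.

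Klf15, a factor of late differentiation, did not pass in any comparison. It measured 0.61, -0.12 and 0.27 in P5 tail, -0.03, 0.07 and 0.03 in P5 back, -0.18, 0.10 and -0.16 in P1 tail, and -0.47, 0.16 and -0.18 in P1 back. All groups overlapped. Its largest difference was 0.33, for P5 minus P1 in tail (-0.07 to 0.73, adjusted p = 0.331).

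**Figure D3:**
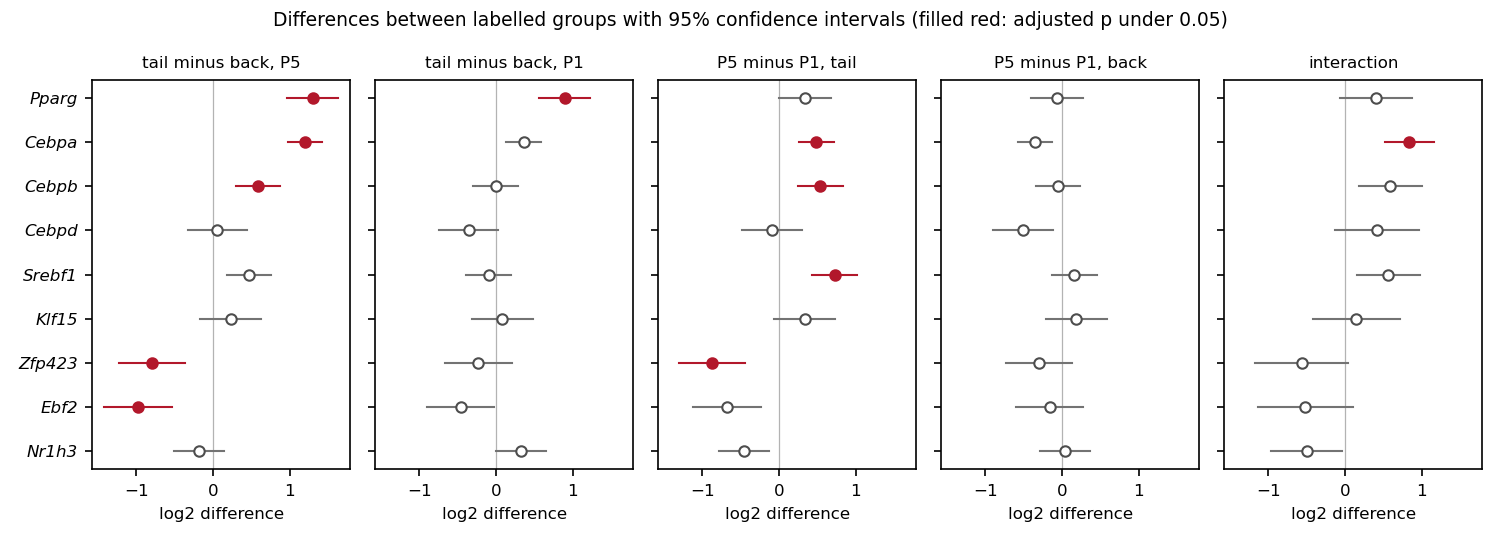
Log2 difference (horizontal axis) of each factor with its 95% interval in 5 comparisons, by limma over 18193 genes, filled red where the adjusted p was under 0.05. At P5 3 factors lie above 0 and 2 below with a call, at P1 Pparg alone is called, and in back no age difference is.

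Counted over the 9 genes, the site difference at P5 was called for 5 (Pparg, Cebpa and Cebpb higher, Zfp423 and Ebf2 lower), while 6.91% of all genes were called, 4.3% higher and 2.61% lower. At P1 1 of 9 (Pparg, higher) was called, against 3.97% of all genes and 2.06% higher. With age in tail, 3 rose (Cebpa, Cebpb and Srebf1) and 1 fell (Zfp423), against 5.3% of all genes called, 3.34% higher and 1.96% lower. In back 0 of 9 were called by limma, against 4.25% of all genes, and 2 of 9 (Cebpa and Cebpd, both lower) had an unadjusted p under 0.05, as did 13.4% of all genes (6.8% lower). With array weights both were called, as were 11.7% of all genes. The interaction was called for 1 of 9, against 2.87% of all genes and 1.93% higher. Of the 13 probe sets, 6 were called at P5 (4.76% of all), 1 at P1 (2.72%), 4 with age in tail (3.12%), 0 with age in back (2.3%) and 2 for the interaction (1.73%). The members were chosen with earlier results of these data known, which these counts do not allow for.

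Arrays of both groups did not overlap for 6 of 9 factors at P5 (20.6% of all genes), 4 of 9 at P1 (30.2%), 6 of 9 with age in tail (19.4%) and 2 of 9 with age in back (28%). The shares at P1 and in back are close to those of all genes. The median difference of the 9 factors was 0.23 at P5, -0.01 at P1, 0.33 with age in tail and -0.07 with age in back, against -0.02, -0.04, 0.04 and 0.01 over all genes. The tail age and P5 site comparisons share the P5 tail arrays, so their calls are not independent of each other.

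Zfp521 and Ebf3, a relative each of Zfp423 and Ebf2, were lower in tail at both ages. Of 19 measured paralogues, 2 were higher and 2 lower in tail at P5, and 0 were higher and 2 lower at P1. Zfp521, the closest relative of Zfp423 and an inhibitor of fat cell commitment, was at -1.12 at P5 (adjusted p = 0.000788) and -0.995 at P1 (adjusted p = 0.00233). Ebf3 was at -1.11 at P5 (adjusted p = 0.00218) and -0.81 at P1 (adjusted p = 0.0205), and in tail it fell with age by 0.80 (adjusted p = 0.0198). Ebf1, which is active in white fat cells, fell with age in tail by 0.92 (adjusted p = 0.00811), and its tail minus back was -0.42 at P5 (adjusted p = 0.186) and 0.23 at P1 (adjusted p = 0.604). Ebf4 was at -0.04 at P5 (adjusted p = 0.923) and -0.09 at P1 (adjusted p = 0.851). Ppara, the relative of Pparg that drives fatty acid oxidation, was 0.64 higher in tail at P5 (adjusted p = 0.00457) and 0.55 higher at P5 than at P1 in tail (adjusted p = 0.0146). Klf6, the other paralogue that was higher in tail at P5 (0.45, adjusted p = 0.0436), fell with age in back by 0.94 (adjusted p = 0.000932).

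Other known regulators of fat cell formation mostly did not pass: of 29 measured, 3 were higher and 2 lower in tail at P5, and 1 was higher and 1 lower at P1. Gata2, which holds preadipocytes back from differentiation, was lower in tail at both ages (-0.89 at P5, adjusted p = 0.00282, and -0.72 at P1, adjusted p = 0.0155). Egr2 (Krox20), an early inducer of Cebpb, was 1.73 higher in tail at P5 (SE 0.20, adjusted p = 0.000238) and rose with age in tail by 1.43 (adjusted p = 0.00136). Mlxipl, the gene of the glucose-sensing lipogenic factor ChREBP, was at -0.07 for tail minus back at P5 (adjusted p = 0.864) and 1.05 higher in tail at P1 (adjusted p = 0.0023). Dlk1, which inhibits fat cell formation and marks lower dermal fibroblasts, fell with age in tail by 1.74 (SE 0.31, adjusted p = 0.00533).

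Genes of the mature fat cell separated the sites at P1, as Pparg did, but had drawn together by P5. Of 21 measured fat cell genes (26 listed), 5 were higher and 0 lower in tail at P5, with a median difference of 0.39. At P1 14 were higher and 0 lower, with a median of 1.66. Adipoq, the fat cell hormone adiponectin, measured 1.06, 0.00 and 0.58 in P5 tail, against -0.69, 0.00 and -0.04 in P5 back, a difference of 0.79 (adjusted p = 0.124). At P1 it measured 2.71, 1.91 and 2.28 in tail, against -3.26, -2.75 and -2.78 in back, a difference of 5.23 (SE 0.28, adjusted p = 5.02e-07). The interaction was called for 11 of the 21, negative for 10 (Adipoq -4.44, SE 0.40, adjusted p = 0.000372) and positive for Cidea, a lipid droplet protein of brown fat and of sebaceous glands (2.28, adjusted p = 0.00587). For Pparg the same quantity was 0.40 (-0.07 to 0.88, adjusted p = 0.44), and for Cebpa it was positive at 0.84.

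With age, fat cell genes were called mostly lower in tail and mostly higher in back. In tail 8 of 21 fat cell genes fell and 1 rose, with a median of -0.41, while Cebpa rose by 0.49 and Pparg was at 0.34 without a call. Among those that fell were Car3 (-2.28), Adipoq (-1.75), Cidec (-1.68) and Retn (-1.55), with adjusted p-values of 0.00395 or less. The 1 that rose, Cidea, was 2.72 higher (adjusted p = 0.000109). In back 10 of 21 rose and 1 fell, with a median of 0.55, while Pparg was at -0.07 and Cebpa at -0.35 without a call. The difference between the regulators and the fat cell genes was not tested. There Adipoq rose by 2.69 (adjusted p = 0.000264), Lep by 1.60 (adjusted p = 0.00107) and Fabp4 by 0.90 (adjusted p = 0.00826). The 14 fat cell genes called at P1 numbered 13 to 15 with any array left out, and the 10 that rose in back numbered 4 to 10, with 1 left when P1 back replicates 1 and 6 were both left out. The age comparisons in tail and back share no arrays.

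**Figure D4:**
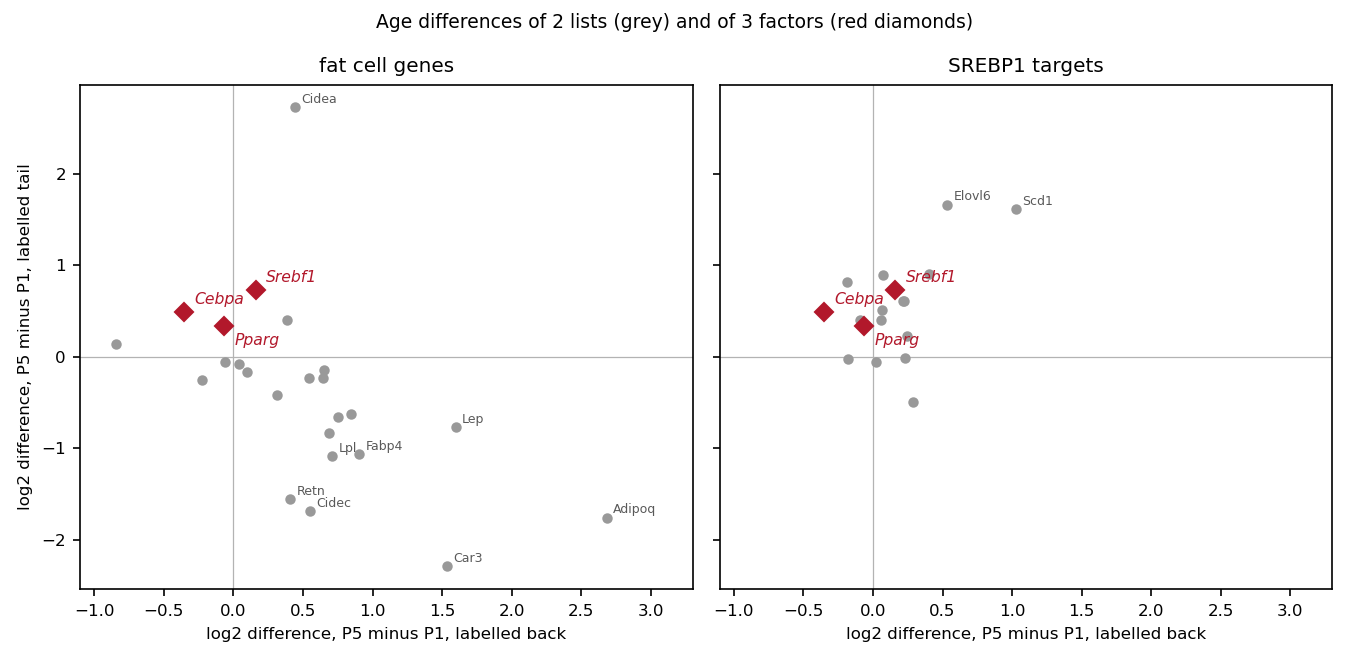
Log2 difference P5 minus P1 in back (horizontal axis) against the same in tail (vertical axis), for 21 fat cell genes (left, grey) and 15 SREBP1 targets (right, grey), with Pparg, Cebpa and Srebf1 as red diamonds. Most fat cell genes lie below 0 in tail and above 0 in back (Adipoq at -1.75 in tail and 2.69 in back), whereas Cebpa lies on the opposite side (0.49 in tail and -0.35 in back).

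In tail, where Srebf1 rose with age, so did most targets of SREBP1, the enzymes of fatty acid synthesis. There 9 of 15 rose with age and 1 (Fads1) fell, with a median of 0.51: Elovl6, a chain-lengthening enzyme, rose by 1.66 (adjusted p = 0.00219) and Scd1, a desaturase, by 1.61 (adjusted p = 0.000182), and Fasn, the fatty acid synthase, by 0.61 (adjusted p = 0.0119). At P5 8 were higher in tail and 2 lower (Fads1 and Fads2, desaturases of polyunsaturated fatty acids), with a median of 0.42. At P1 0 were higher and 1 lower, and with age in back 1 (Scd1, by 1.03) rose. Over the 15 genes the mean centred value was 0.28 to 0.48 in P5 tail, 0.03 to 0.12 in P5 back, -0.20 to -0.09 in P1 tail and -0.19 to -0.08 in P1 back. Srebf1 itself had no call by site at P5 (0.47), and its part in the values of these genes was not tested.

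Of 11 targets of LXR, 3 were higher in tail at P5 and 2 at P1, with none lower. Apoe was 2.07 higher in tail at P5 (adjusted p = 0.000166) and the cholesterol exporter Abca1 0.84 higher (adjusted p = 0.00938), while Nr1h3 itself was at -0.18. Lpl, which is on both this list and the fat cell list, was at -0.07 for tail minus back at P5 and 1.72 higher in tail at P1 (adjusted p = 3.2e-05). Of 12 genes of brown fat 3 were higher in tail at each age, with none lower. They were Cidea, Elovl3 and Zic1 at P5, and Dio2, Cox7a1 and Zic1 at P1. Ucp1 was measured and was called by site at neither age. Zic1, a patterning factor seen in dorsal brown fat, was 2.18 higher at P5 and 2.27 higher at P1.

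Sebaceous gland genes were high in P5 tail, as were Cebpa, Cebpb and Srebf1. All 6 measured sebaceous genes (10 listed) rose with age in tail, with a median of 1.60, and 4 were higher in tail at P5, with a median of 1.86. Krt79, a keratin of the gland duct, measured 1.65, 1.74 and 1.61 in P5 tail, -0.92, -0.88 and -0.84 in P5 back, 0.31, 0.41 and 0.17 in P1 tail and -0.44, -0.17 and -0.27 in P1 back. Its order of groups was that of Cebpa, with a fall in back. Of the 6 genes, Krt79 was the only 1 called with age in back, where the median of the 6 was 0.32. Over the 6 genes the mean was 1.07 to 1.74 in P5 tail, -0.22 to -0.04 in P5 back, -0.25 to 0.02 in P1 tail and -0.47 to -0.09 in P1 back. The fatty acid synthase Fasn is on both the sebaceous and the SREBP1 lists. Of 16 keratinocyte genes, 7 were higher and 1 lower (Krt2) in tail at P5, 1 was higher (Krt77) and 2 lower (Krt5 and Krt2) at P1, 5 rose with age in tail and 8 fell with age in back. With single arrays left out, 1 to 9 were lower at P1 and 1 to 9 fell in back. Their mean was 0.10 to 0.53 in P5 tail, -0.99 to -0.31 in P5 back, -1.09 to 0.27 in P1 tail and 0.38 to 0.70 in P1 back. They thus lay above P5 back in P5 tail, as the 3 factors did in mean. The P1 back mean includes Krt2, at 5.32 to 5.66 there and -1.68 to -1.56 in P5 tail. Single genes went both ways: Krt15 (0.52 to 0.68) and Krt77 (3.32 to 4.12) were highest in P5 tail, and Krt1 (1.22 to 1.43) in P1 back. The part of sebaceous cells and keratinocytes in the values of Cebpa, Cebpb and Srebf1 was not tested.

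Immediate early genes, which respond quickly to handling of cells, were called in opposite directions at the 2 ages. Of 20, 6 were higher and 0 lower in tail at P5, 0 were higher and 8 lower at P1, 15 fell with age in back and 0 were called with age in tail. Their mean was -0.19 to 0.18 in P5 tail, -0.73 to -0.38 in P5 back, -0.45 to 0.20 in P1 tail and 0.64 to 0.79 in P1 back, where Cebpd was also high. Their part in the values of Cebpb and Cebpd was not tested.

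**Figure D5:**
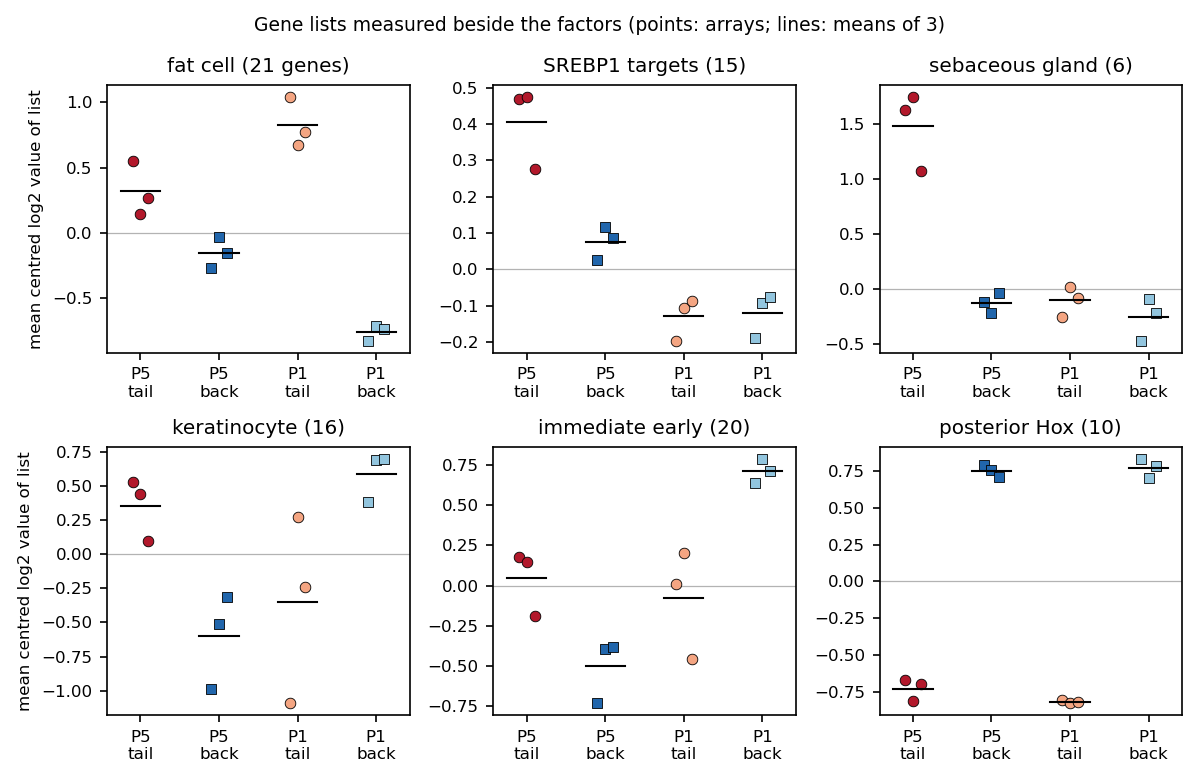
Mean centred log2 value of 6 gene lists (vertical axis) in each array, by labelled group (horizontal axis), with points for arrays and lines for the mean of 3. Sebaceous gland genes reach 1.07 to 1.74 in P5 tail only, fat cell genes are highest in P1 tail (0.67 to 1.04), and posterior Hox genes are low in all tail arrays.

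Fibroblast and preadipocyte genes were called in both directions at P5: of 16 measured, 5 were higher and 1 lower in tail at P5, 3 higher and 0 lower at P1, and the median difference was 0.07 at P5 and 0.02 at P1. Lrig1, a marker of upper dermal fibroblasts and of epidermal stem cells, was 1.13 higher in tail at P5 (adjusted p = 0.000109). Macrophages express Nr1h3, and the mean of their genes had its order of P1 tail above all other arrays. Mrc1 and Cd163 had that order singly, but other macrophage genes did not. Adgre1 was 0.20 to 0.67 in P1 tail and 0.51 in P5 back replicate 1. Cd68 was -0.28 to 0.04 in P1 tail and 0.21 in P5 tail replicate 2. Over 13 macrophage genes the mean was -0.55 to 0.01 in P5 tail, -0.07 to 0.10 in P5 back, 0.14 to 0.39 in P1 tail and -0.20 to 0.05 in P1 back. Of the 13, 2 were lower in tail at P5 (Mrc1 and Cd163), 1 was higher at P1 (Cd163) and 3 fell with age in tail (Mrc1, Cd163 and Csf1r), which numbered 2 to 5 with single arrays left out. Their median difference with age in tail was -0.61, and that of Nr1h3 was -0.46 without a call. The part of macrophages in the values of Nr1h3 was not tested. None of 10 endothelial or 16 muscle genes was called by site with limma. The mean of the muscle genes spread widely among the back arrays. It was -1.23 to 1.07 in P5 back, with 1.07 in replicate 3, and -1.24 to 0.56 in P1 back.

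The genes whose values ran most closely with a member over the 12 arrays are given as a description, since the 12 arrays share their 4 groups. For Pparg they were Entpd1 (Pearson r = 0.978), Glul (0.976) and Acaa1b (0.975). For Cebpa they were Krt79 (0.971), Prss22 (0.971) and Lgr6 (0.968), of which Lgr6 marks stem cells of the hair follicle isthmus. For Cebpb they were Tfap2e (0.970), Acly (0.948), the enzyme that makes acetyl-CoA for fatty acid synthesis, and Hsd17b2 (0.946). For Srebf1 they were Papss1 (0.955), Moxd1 (0.946) and Ccn5 (0.940), and for Cebpd Mcu (0.920), Selenoh (0.910) and Cdkn2d (0.905). Zfp423 ran with Papss2 (0.956), Plekhg2 (0.956) and Plxnd1 (0.952), and Ebf2 with Prkg1 (0.967), its own paralogue Ebf3 (0.957) and Aldh1l2 (0.951). Klf15 ran with Dyrk3 (0.959), Gng13 (0.914) and Magea5 (0.908), and Nr1h3 with Tvp23a (0.930), Cpsf7 (0.924) and Arhgap42 (0.909).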

How the data were processed

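RNA of mouse dermis was hybridised to 12 Affymetrix arrays. The deposited log2 values were made by the authors with RMA in GeneSpring (RMA is also named in the submitters' processing notes) and hold 45101 probe sets, each centred on its median over the 12 arrays (largest absolute median 5e-07). The log base was taken from RMA, and the centring is not described in the sources used here. It removes brightness, so the methods' filter on dim genes could not be applied and signal over background is unknown. The number of arrays limits the precision.

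After 64 control probe sets were left out, 45037 were tested. Of these 34945 had 1 gene symbol in the platform annotation, 932 several and 9160 none here, and those with 1 symbol were averaged to 18193 genes. A single limma 3.58.1 model in R 4.3.3 (lmFit, then eBayes) covered the 12 arrays in 4 groups with 8 residual degrees of freedom, and gave tail minus back at each age, P5 minus P1 at each site, and their interaction. Benjamini-Hochberg adjustment ran over all genes, or over all probe sets for single probe sets, with a threshold of 0.05. Deviations of same-numbered arrays from their group means correlated at r = -0.04 to 0.26, above 0.1 in 3 of 6 pairs. Numbers 1 and 4 joined arrays of different ages, and differently numbered arrays were not compared. Whether an equal number means a shared mouse or batch was not tested, and the main fit did not take the numbers as pairs. The procedure was tested on simulated data.

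The members and gene lists were chosen with earlier results of these data known. Named genes were all members and the 3 genes most correlated with each member. From each list came the 4 genes that were called with the greatest difference in each direction. Fasn was added after its values were seen, and Ebf4 and Ucp1 were also named although no comparison called them. The alternatives tried were scaling by array median, eBayes with robust variances, weighted arrays, blocking on the replicate number, fitting the compared groups alone, dropping each array, the methods' t-test, other choices of probe sets and, added after seeing the data, dropping 2 pairs of arrays.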

Additional observations from a re-analysis of the deposited data

Results flagged for a closer look

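The site difference of Cebpa was not the same at the 2 ages by a test of the difference itself. Tail minus back was 1.20 at P5 and 0.36 at P1, a gap of 0.84 (SE 0.15, adjusted p = 0.00871 by limma over all genes). Its single probe set, 1418982_at, gave the same 0.84, with an adjusted p of 0.0229 over all probe sets. All 6 tail arrays lay above all 6 back arrays, so the sign was the same at both ages. One Cebpb probe set, 1418901_at, differed likewise, by 1.00 (SE 0.23, adjusted p = 0.0438), with tail minus back at 1.02 at P5 and 0.02 at P1. The other, 1427844_a_at, gave 0.18 (adjusted p = 0.804). Groups of 3 arrays were too small for a test of single deviating arrays, and the arrays named as standing apart were only described from their values.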

How the results depend on the processing

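Of 957 member differences under an alternative, 851 kept their direction and their side of the threshold, 52 no longer passed, 23 passed and 31 changed sign, none of which was called before or after. The cause was not tested for any of these changes. The 52 could come only from differences called in the main fit, and most of the 957 had no call to lose. Those called there were 5 of 9 for the site at P5, 1 at P1, 4 with age in tail, 0 in back and 1 for the interaction. With single arrays left out, the number of members called was 3 to 6 for the site at P5 (5 with all arrays). The share of all genes called there was 4.05% to 11.7%. At P1 it was 1 to 2 members (1 with all arrays), against 2.12% to 5.71% of all genes. For age it was 1 to 5 in tail (4), against 2.59% to 9.26%, and 0 to 2 in back (0), against 2.08% to 6.2%. For the interaction it was 1 to 1 (1), against 1.31% to 4.02%.

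With array weights 2 members were called at P5 (3.64% of all genes), 4 at P1 (20.1%), 2 with age in tail (2.38%) and 2 with age in back (11.7%). The methods' t-test, with Benjamini-Hochberg adjustment, called 1 at P5, 0 at P1 and 0 with age in tail, where it called 24, 6 and 0 of all 18193 genes. With only the compared groups fitted, 0 were called with age in tail (1.73% of all genes) and 2 with age in back (8.39%). Without probe sets of shared-sequence suffixes 0 were called at P1 (3.5% of all genes), where the only Pparg probe set is left out by construction. For the interaction 2 were called (2.66%), as with the probe set of largest SD (2, against 2.69%). Without P5 tail replicates 2 and 3, chosen after seeing the data for their high sebaceous genes, 2 were called at P5 (4.56% of all genes), 2 at P1 (7.4%), 0 with age in tail (4.87%) and 2 with age in back (7.09%). Without P1 back replicates 1 and 6, chosen after seeing the data for their high cartilage genes, 0 were called at P1 (0.665%) and 0 for the interaction (0.544%), with 1 P1 back array left and assumed to vary like the others.

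The replicate number as a block changed calls although the numbers were not taken as pairs: 2 members were called with age in tail, against 2.07% of all genes (Zfp423, and Ebf2 at -1.002 with an adjusted p of 0.0341), while Cebpa (adjusted p = 0.386), Cebpb (0.163) and Srebf1 (0.283) lost theirs, as did Cebpb at P5 (0.0598). In back the block gave 0.036 for Cebpb and -0.090 for Srebf1.

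The differences that changed sign were all uncalled. Cebpb at P1 was 0.0054 with arrays centred on their own median and 0.019 without shared-suffix probe sets or with the probe set of largest SD, which put Ebf2 with age in back at 0.014. Cebpd at P5 was -0.080 with array weights. With arrays left out, singly or as the named pairs, tail minus back at P5 spanned -0.18 to 0.21 for Cebpd and -0.31 to 0.089 for Nr1h3. At P1 it spanned -0.11 to 0.077 for Cebpb, -0.72 to 0.051 for Ebf2, -0.25 to 0.24 for Klf15 and -0.43 to 0.15 for Zfp423. P5 minus P1 in tail spanned -0.34 to 0.054 for Cebpd. In back it spanned -0.15 to 0.020 for Cebpb, -0.42 to 0.35 for Ebf2, -0.14 to 0.35 for Klf15, -0.041 to 0.17 for Nr1h3, -0.13 to 0.011 for Pparg and -0.49 to 0.078 for Zfp423. The interaction spanned -0.029 to 0.48 for Klf15.

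The limits of these data are 3 arrays a group, labels that the Hox genes contradict, site and separating solution that cannot be told apart, and centred values without brightness, so a factor near background cannot be recognised.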
